A study of Mus musculus with 17 samples.

Results

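The regions described here carried the histone mark H3K27ac in wild-type CD4 thymocytes (WT CD4) and were called in neither of 2 CD8 groups. They were found by merging the enriched intervals, called islands, of the 3 thymic H3K27ac libraries wherever islands shared 1 bp or more, and keeping regions with an island of WT CD4 only. This gave 6510 regions of 79486 in all (8.19%) and of the 24029 with a WT CD4 island (27.1%). The 3 groups were mature thymocytes, each with 1 library per mark. WT CD4 and wild-type CD8 (WT CD8) cells came from wild-type mice, and the deficient CD8 cells (DKO CD8) came from mice whose genotype is given as Tcf1-/-Lef1-/-, with both genes deleted by CD4-Cre, a recombinase driven by Cd4 regulatory sequence. The stated sort was TCRβ high, CD69-negative and CD24-negative. The WT CD4 samples share a phenotype entry that names CD8 cells, but their titles and source names say CD4, which was followed. Besides H3K27ac, the comparisons use H3K9ac, H3K4me3 and H3K27me3 of the same groups and the Tcf1 peaks of splenic WT CD8 cells. The labels used here state no strain, age, sex or number of mice behind a library.

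H3K27ac is laid down by acetyltransferases such as p300 and CBP and marks active promoters and enhancers. H3K9ac has a similar distribution, H3K4me3 is concentrated at active promoters, and H3K27me3 is written by Polycomb repressive complex 2 over silenced genes. CD4 and CD8 thymocytes arise from a common double-positive precursor: cells selected on MHC class II become CD4 helper cells under the factor ThPOK, and cells selected on MHC class I become CD8 cytotoxic cells under Runx3. Tcf1 and Lef1 are DNA-binding factors of the HMG-box family that act throughout T cell development. H3K27ac at distal elements is often used to list enhancers of one lineage. Genes and sequences at these regions were not analysed here, because the annotation at hand is of another build than mm9, the build of the files. For the same reason, the identity of the CD4 cells was not checked at the Cd4, Cd8a or Cd8b1 loci.

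The regions were chosen by presence of an island, so their H3K27ac values are a description and no test was applied to them. They were narrow and weak. Each consisted of a single WT CD4 island, with 14 to 779 reads and a median of 32, and the middle 80% had 23 to 57 reads. Of the 6510, only 973 (14.9%) had 50 reads or more, 1.71% had 100 or more, and 11 had 200 or more. Regions that WT CD4 shared with DKO CD8 had a median of 52 WT CD4 reads, those shared with WT CD8 had 38, and those of all 3 groups had 131. The median island length was 1800 bp in WT CD4 alone, against 2000 bp in either class shared with 1 CD8 group and 2600 bp in all 3 groups. The median density was 17.9 reads per kb in WT CD4 alone, against 26.0 with DKO CD8, 20.7 with WT CD8 and 50.0 in all 3 groups. The WT CD4-alone regions made up 26.6% of WT CD4 H3K27ac islands but held 9.73% of their reads, over 13.2 Mb. In bulk chromatin, a mark carried by few cells and a weak mark in all cells cannot be told apart.

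**Figure D1:**
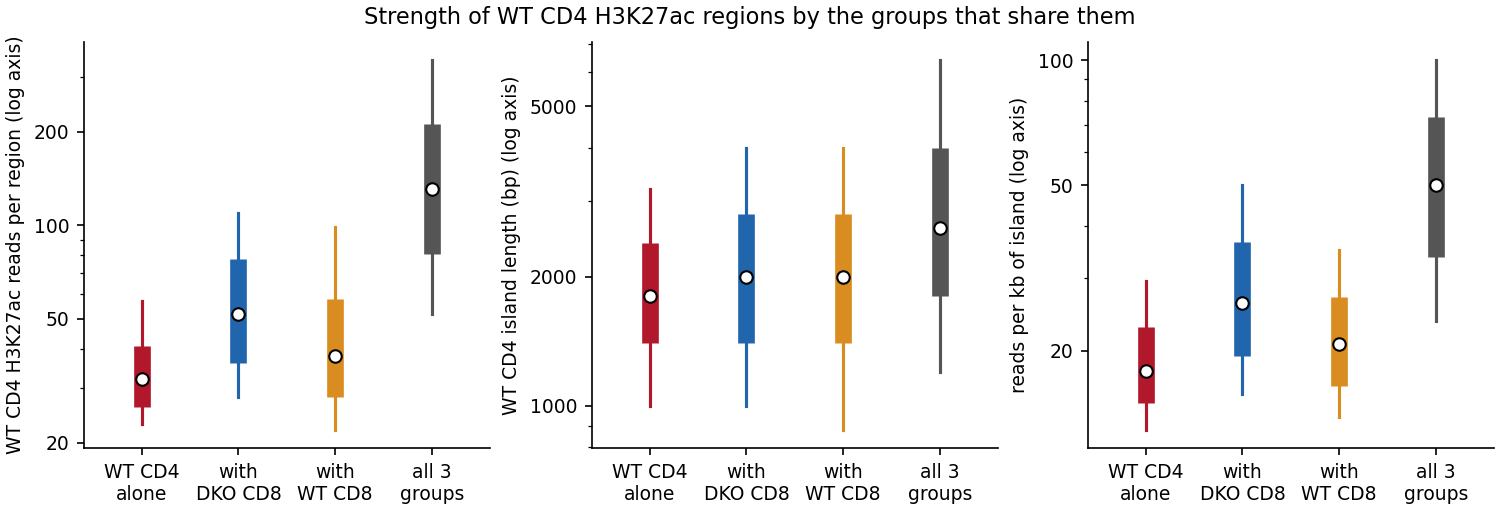
WT CD4 H3K27ac reads per region, length of the WT CD4 island or islands in it, and reads per kb (all on log axes) for regions of WT CD4 alone, with DKO CD8, with WT CD8 and of all 3 groups; circles are medians, bars the middle 50% and lines the middle 80% of regions. The regions of WT CD4 alone had the lowest median on each axis (32 reads, 1800 bp and 17.9 reads per kb).

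Regions just inside and just outside the rule had nearly equal reads. Of the 6510 regions, 72 touched an island of DKO CD8 or WT CD8 with a gap of 0 bp, and these had a median of 33 reads. Just outside the rule, 207 WT CD4 islands were overlapped by another group's island over the smallest possible length, 200 bp, and had a median of 31 reads.

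The weakness of the regions bears on what a missing island means. For H3K27ac, island reads summed to 2505720 in WT CD4, 1959297 in DKO CD8 and 2056894 in WT CD8; the reads outside islands are unknown. At the 9885 regions of all 3 groups, WT CD4 had a median of 1.31 times the reads of DKO CD8 and 3.87 times those of WT CD8. Divided by these ratios, the median WT CD4-alone region would have 24.5 reads in DKO CD8, where the smallest island had 11, and 8.27 reads in WT CD8, where the smallest had 10. On this scale, 4510 of the 6510 regions (69.3%) would fall below the smallest WT CD8 island, and 1 would fall below the smallest DKO CD8 island. The remaining 2000 reached the smallest island of both lists. Only 142 (2.18%) reached the median island of both lists, which had 34 reads for DKO CD8 and 24 for WT CD8. The ratios hold sequencing depth, enrichment and any difference in H3K27ac between the groups, which cannot be told apart without total reads, and levels below the smallest island of a list are not seen in it. Set against DKO CD8, 1345 regions (20.7%) reached the median island.

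H3K9ac, which the rule did not use, was found at few of these regions. A WT CD4 H3K9ac island overlapped 796 of the 6510 (12.2%, exact 95% interval 11.4 to 13.0), a DKO CD8 island 56 (0.860%, 0.650 to 1.12) and a WT CD8 island 164 (2.52%, 2.15 to 2.93). These and all later intervals are Clopper-Pearson intervals and cover counting error only; with 1 library per group there is no replicate check and no p-value. Over all 24476 WT CD4 H3K27ac islands the shares were 44.5%, 19.0% and 18.0%. In 749 regions (11.5%) the H3K9ac island was in WT CD4 and not in WT CD8, where 12.7% of all merged H3K27ac regions and 28.8% of those with a WT CD4 island were of this kind. The reverse held in 117 regions (1.80%), against 2.16% and 1.97%. H3K9ac in WT CD4 and not in DKO CD8 was seen in 784 regions (12%), against 12.3% of all merged regions and 27% of those with a WT CD4 island, and the reverse in 44 (0.676%, against 0.961% and 1.09%). Between the CD8 groups, 54 regions (0.829%) had H3K9ac in DKO CD8 only, against 3.05% of all merged regions and 7.89% of those with a WT CD4 island, and 162 (2.49%) had it in WT CD8 only, against 3.87% and 6.97%. The shares with H3K9ac in WT CD4 only were thus close to those over all merged regions and below those over regions with a WT CD4 island. Of the 79486 merged regions, 43387 were of WT CD8 alone, and 5.24% of these had WT CD4 H3K9ac. The closeness to all merged regions is therefore not read as a result about the regions here. The lists also differed in length: WT CD4 H3K9ac islands covered 45.6 Mb, DKO CD8 islands 11.5 Mb and WT CD8 islands 13.5 Mb. With each mark's lists trimmed to equal covered length, those of H3K27ac included, 5678 regions met the rule. Of these, 2.47% had H3K9ac in WT CD4, 0.828% in DKO CD8 and 1.99% in WT CD8. Later shares at equal covered length are of the same 5678 regions.

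H3K4me3 was also less frequent here than over all WT CD4 H3K27ac islands. WT CD4 islands overlapped 681 regions (10.5%, 9.73 to 11.2), DKO CD8 islands 226 (3.47%, 3.04 to 3.95) and WT CD8 islands 474 (7.28%, 6.66 to 7.94), where all WT CD4 H3K27ac islands gave 39.7%, 31.0% and 33.3%. An island in WT CD4 and not in WT CD8 was found in 523 regions (8.03%), against 5.41% of all merged regions and 11.5% of those with a WT CD4 island. The reverse was found in 316 (4.85%), against 12.6% and 5.22%. Of the 43387 regions of WT CD8 alone, which are part of all merged regions, 2.65% had H3K4me3 in WT CD4 and 19.6% in WT CD8. For WT CD4 without DKO CD8 the count was 595 (9.14%, against 5.86% and 12.1%), and for DKO CD8 without WT CD4 it was 140 (2.15%, against 4.46% and 3.26%). The order of WT CD4 over each CD8 group was kept at equal covered length (7.26% in WT CD4 without WT CD8 against 2.57% for the reverse, and 7.85% in WT CD4 without DKO CD8 against 2.32% for the reverse). Between the CD8 groups, 167 regions (2.57%) had H3K4me3 in DKO CD8 only, against 4.25% of all merged regions and 6.42% of those with a WT CD4 island, and 415 (6.37%) had it in WT CD8 only, against 12.9% and 9.02%. Of the WT CD4 H3K4me3 islands here the median had 20 reads, close to the median of 19 over that whole list.

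H3K27me3, the Polycomb mark, was more frequent here than over all WT CD4 H3K27ac islands in each group: 1391 regions had an island in WT CD4 (21.4%, 20.4 to 22.4, against 14.8%), 1085 in DKO CD8 (16.7%, 15.8 to 17.6, against 14.2%) and 844 in WT CD8 (13.0%, 12.2 to 13.8, against 9.89%). Over all merged H3K27ac regions the shares were 12.6%, 11.2% and 27.2% in the same order, so the WT CD8 share here was below that background. Islands shared with WT CD8 were higher in each group, at 26.7%, 21.1% and 33.9%. The WT CD4 H3K27me3 islands concerned had a median length of 5600 bp against 2800 bp over that list. Of the 1391 regions, 857 (61.6%) lay entirely inside them. A longer island is more likely to overlap any region, and other classes were not measured. No trait of these regions is therefore read from the lengths. At equal H3K27ac strength the classes lay closer together or in another order. Among islands of 25 to 34 reads, H3K27me3 in WT CD4 was found at 24.1% in WT CD4 alone, 19.6% with DKO CD8, 35% with WT CD8 and 23.4% in all 3 groups. Among those of 14 to 24 reads, WT CD4 alone was lowest, at 18.6% against 20.6%, 25.8% and 23.2%.

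Most regions with H3K27me3 in a CD8 group had it in WT CD4 too. H3K27me3 in both DKO CD8 and WT CD8 but not in WT CD4 was found in 12 regions (0.184%, 0.0953 to 0.322), against 1.27% of all merged regions and 0.416% of those with a WT CD4 island. H3K27me3 in at least 1 CD8 group and not in WT CD4 was found in 287 (4.41%, 3.92 to 4.94), against 23% and 6.23%. The mark in WT CD4 and neither CD8 group was found in 400 regions (6.14%, 5.57 to 6.76), against 3.58% and 3.96%, and in all 3 groups in 639 (9.82%, 9.10 to 10.6), against 5.06% and 6.73%. Set against WT CD8, 677 regions (10.4%) had H3K27me3 in WT CD4 only, against 6.15% of all merged regions and 7.88% of those with a WT CD4 island, and 130 (2.0%) had it in WT CD8 only, against 20.8% and 2.66%. The 20.8% rests largely on the 43387 regions of WT CD8 alone, of which 40.6% had WT CD8 H3K27me3. Set against DKO CD8, 475 (7.30%) had it in WT CD4 only, against 4.93% and 4.86%, and 169 (2.60%) in DKO CD8 only, against 3.54% and 4%. At equal covered length the order of WT CD4 and DKO CD8 turned, with 3.19% in WT CD4 only and 3.89% in DKO CD8 only. Between DKO CD8 and WT CD8, H3K27me3 was in DKO CD8 only at 434 regions (6.67%, against 4.85% of all merged regions and 7.5% of those with a WT CD4 island) and in WT CD8 only at 193 (2.96%, against 20.9% and 3.14%).

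Where a mark had an island in both groups compared, its reads were set against the median ratio of all H3K27ac regions with both islands, as a relative value on the log2 scale, and called beyond 2-fold. H3K27me3 in WT CD4 relative to WT CD8 had a median of 0.21 at 714 regions. Of these, 151 (21.1%, against 17.9% of all such regions) were at least 2-fold higher and 84 (11.8%, against 22.9%) at least 2-fold lower. Relative to DKO CD8, the 916 regions with both had a median of 0.00, with 112 higher (12.2%, against 13%) and 82 lower (8.95%, against 7.39%). DKO CD8 relative to WT CD8 had a median of 0.33 at 651 regions, with 155 higher (23.8%, against 17.7%) and 60 lower (9.22%, against 27.6%). These values, and those of H3K9ac and H3K4me3 below, are given without reading a direction. Only a minority of the regions that set the median ratios were of WT CD4 alone. For WT CD4 and WT CD8 they were 714 of 5095 for H3K27me3 and 47 of 4145 for H3K9ac. The H3K9ac islands here had a median of 22 reads in WT CD4 and 19 in WT CD8. Over the whole lists the medians were 22 and 20, and the smallest island of either list had 10. At the 47 regions with H3K9ac in both WT CD4 and WT CD8, the median was -0.96, with 0 higher in WT CD4 (against 6.34%) and 22 lower (46.8%, against 10.3%). At the 12 with H3K9ac in both WT CD4 and DKO CD8, it was -0.81, with 0 higher (against 3.59%) and 5 lower (41.7%, against 5.1%). The 2 with H3K9ac in both CD8 groups were within 2-fold of the median ratio, where 3.98% of all such regions were higher and 4.12% lower in DKO CD8. For H3K4me3 the median was -0.30 at 158 regions for WT CD4 relative to WT CD8, with 3 higher (1.90%, against 5.87%) and 20 lower (12.7%, against 8.29%). It was -0.15 at 86 regions relative to DKO CD8, with 0 higher (against 4.35%) and 11 lower (12.8%, against 5.81%), and -0.17 at 59 regions for DKO CD8 relative to WT CD8, with 0 higher (against 6.5%) and 6 lower (10.2%, against 9.18%). The part of island size in these ratios was not tested.

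**Figure D2:**
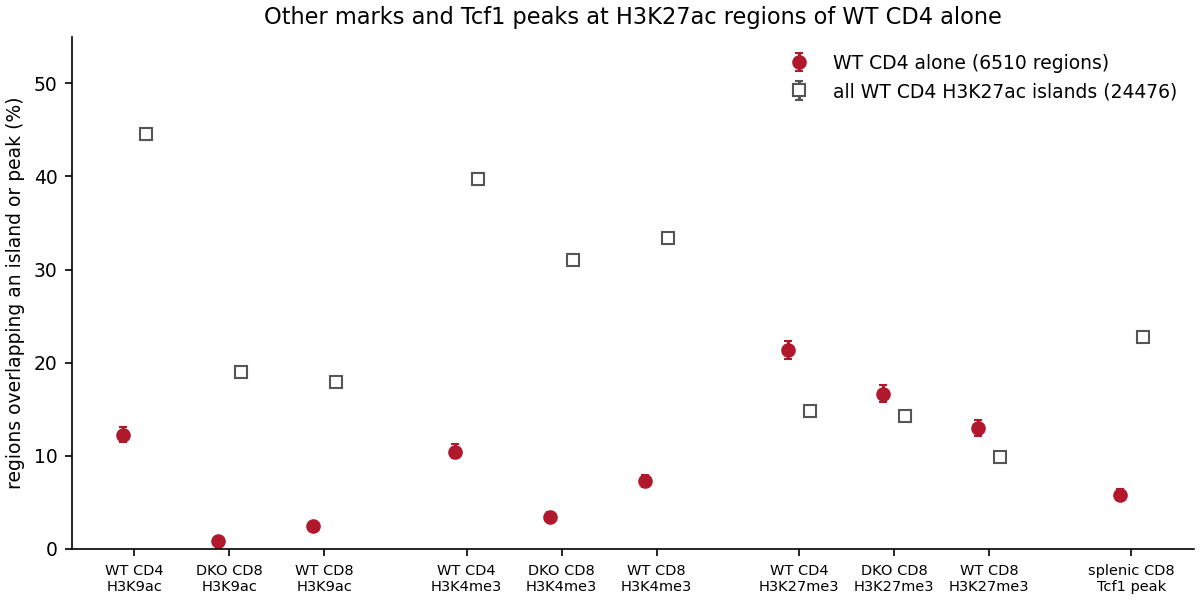
Percent of H3K27ac regions of WT CD4 alone (filled circles) and of all WT CD4 H3K27ac islands (open squares) that overlapped an island of each mark and group or a splenic WT CD8 Tcf1 peak; bars are exact 95% intervals for counting error. The regions of WT CD4 alone were lower for H3K9ac, H3K4me3 and Tcf1 (5.82% against 22.8%) and higher for H3K27me3.

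Taking the 9 libraries of the other marks as one, 3829 regions (58.8%, 57.6 to 60) had no island in any of them, against 35.7% of all WT CD4 H3K27ac islands, and 3589 (55.1%) had no Tcf1 peak either. At the other end, 39 regions (0.599%) had an island in 6 or more of the 9 libraries and 0 had one in all 9. These counts were not made over other regions, so they are not read as high or low. Within WT CD4, 228 regions (3.5%) had both H3K9ac and H3K4me3, the usual pair of an active promoter, against 10.8% of all merged regions and 33.9% of those with a WT CD4 island. H3K9ac without H3K4me3 was found in 568 (8.73%), against 7.03% and 11.4%, and H3K4me3 without H3K9ac in 453 (6.96%), against 3.9% and 6.66%. In 115 regions (1.77%) H3K9ac and H3K4me3 were both called in WT CD4 and neither was called in DKO CD8 or WT CD8, against 1.16% of all merged regions and 2.79% of those with a WT CD4 island. These 115 had a median of 38 H3K27ac reads. Marks of activity and of Polycomb were not exclusive: of the 796 regions with WT CD4 H3K9ac, 283 (35.6%, 32.2 to 39.0) also had WT CD4 H3K27me3, against 19.4% of the 5714 without. Of the 681 regions with WT CD4 H3K4me3, 299 (43.9%, 40.1 to 47.7) had it, against 18.7% of the 5829 without. These shares were not computed over other regions, so they are not read as a trait of the regions here. Regions with WT CD4 H3K9ac were also longer than those without (median 2000 against 1800 bp). Whether the marks lay on the same chromatin or in different cells was not tested.

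Because overlap with H3K9ac, H3K4me3 and Tcf1 was mostly more frequent in stronger H3K27ac islands, and overlap with H3K27me3 less frequent in the strongest, WT CD4 islands were also compared at equal numbers of H3K27ac reads, in 5 bins chosen after the values had been seen, each island judged on its own bounds. Among islands of 35 to 49 reads, WT CD4 H3K9ac was found at 13.4% of those of WT CD4 alone (225 of 1685), 29.8% of those shared with DKO CD8, 23.9% of those shared with WT CD8 and 37.7% of those of all 3 groups. WT CD4 H3K4me3 was found at 12.1%, 34.6%, 19.3% and 40.4% in the same order. Among islands of 50 to 99 reads, the H3K9ac shares were 15.2% (131 of 862), 45.9%, 27.4% and 61.4%, and the H3K4me3 shares 9.63%, 44.6%, 18.1% and 59.9%. The regions of WT CD4 alone were lowest in both bins, and their exact intervals for H3K9ac (11.8 to 15.1 and 12.9 to 17.8) lay below those of the other classes. With rising H3K27ac, the H3K9ac share of WT CD4 alone was 9.43% at 14 to 24 reads and 25.2% (17.5 to 34.4) at 100 reads or more, where islands of all 3 groups were at 82.7%. The exception to this order was H3K4me3 at 100 reads or more, with 14.4% in WT CD4 alone, 42.4% with DKO CD8, 8.20% with WT CD8 and 69.0% in all 3 groups. Regions are not replicates, and no test was made across them.

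**Figure D3:**
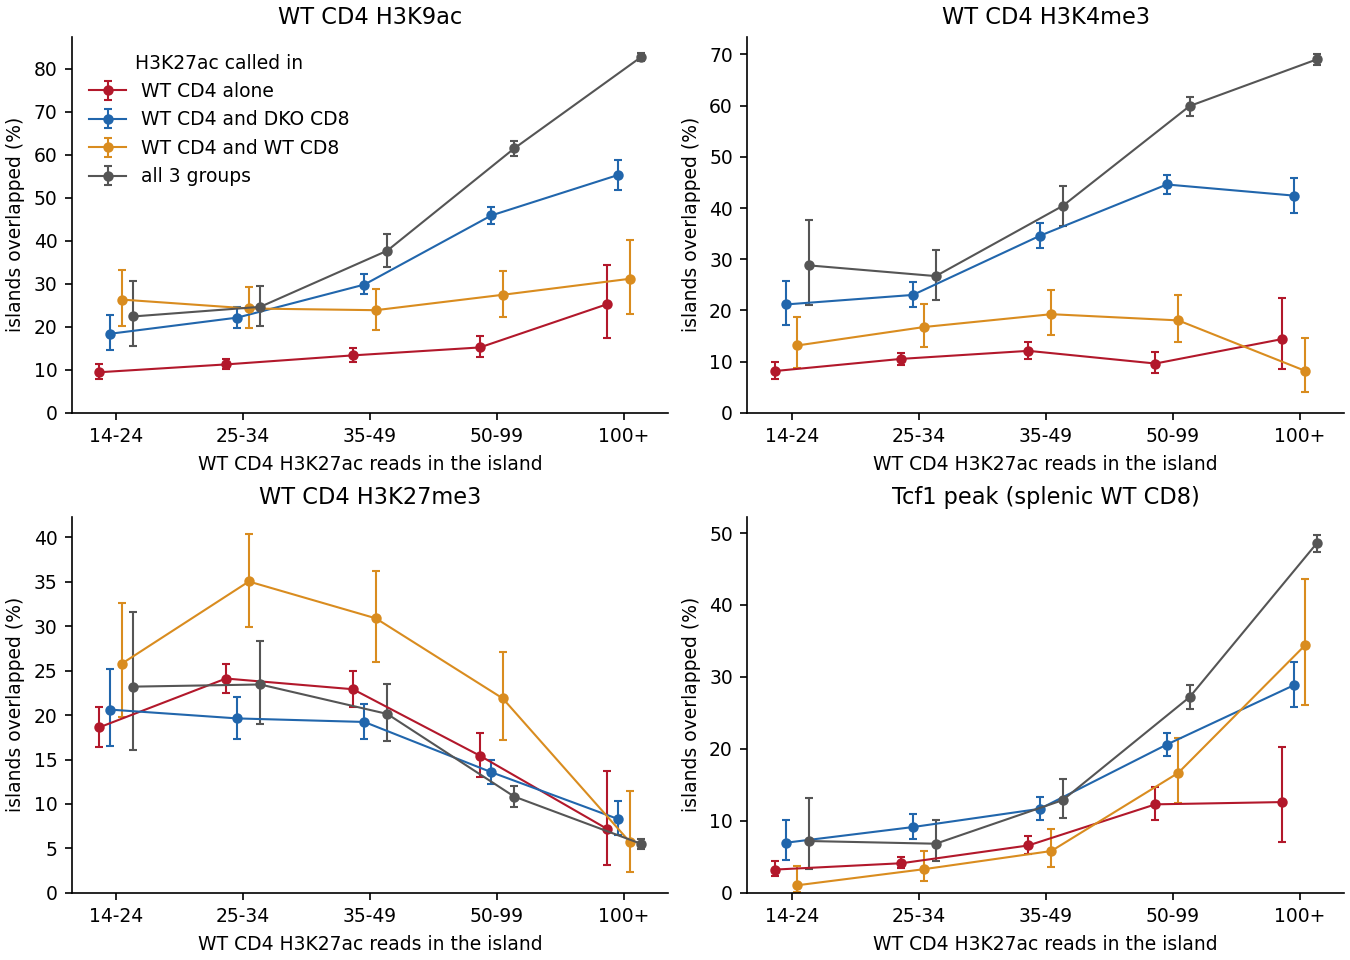
Percent of WT CD4 H3K27ac islands that overlapped WT CD4 H3K9ac, H3K4me3 or H3K27me3 islands or a splenic WT CD8 Tcf1 peak (vertical axes), by H3K27ac reads in the island (horizontal axes) and by the groups in which the region was called; bars are exact 95% intervals for counting error. At 50 to 99 reads, WT CD4-alone islands were at 15.2% for H3K9ac and 9.63% for H3K4me3, below each other class, while the H3K27me3 shares of WT CD4 alone (15.4%) and all 3 groups (10.8%) differed less.

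Tcf1 peaks had been mapped in splenic WT CD8 cells, so they show where this factor bound in the other lineage and another organ. They overlapped 379 of the 6510 regions (5.82%, 5.27 to 6.42), against 16.8% of WT CD4 islands shared with DKO CD8, 9.67% of those shared with WT CD8 and 38.9% of those of all 3 groups. The share was 7.30% over all merged H3K27ac regions and 23.2% over those with a WT CD4 island, both above that of WT CD4 alone. Among regions called in a single group, WT CD4 alone had the highest share: 5.82%, against 1.29% for DKO CD8 alone and 0.141% for WT CD8 alone. Per length the peaks numbered 29.3 per Mb in WT CD4 alone, 8.98 per Mb in DKO CD8 alone and 0.983 per Mb in WT CD8 alone. The strength of these 3 classes was not matched. Of the 379 regions, 372 held 1 peak and 7 held 2. They had more H3K27ac reads than the 6131 without a peak (median 40 against 32), and the share with a peak was 3.23% at 14 to 24 reads, 4.11% at 25 to 34, 6.59% at 35 to 49, 12.3% at 50 to 99 and 12.6% at 100 or more. Islands shared with DKO CD8 had higher shares in each of these bins (6.96%, 9.14%, 11.7%, 20.6% and 28.8%). Islands shared with WT CD8 had lower values in the first 3 bins (1.05%, 3.29% and 5.81%) and higher ones in the last 2 (16.7% and 34.4%).

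Within the deposited peak list, whose score is the authors' own, the peaks in WT CD4-alone regions had a median score of 82.5, against 73.5 in regions shared with DKO CD8, 94.3 in those shared with WT CD8, 80.3 in those of all 3 groups and 76.4 over all 7807 peaks. The other classes had medians of 71.7 (DKO CD8 alone), 68.6 (WT CD8 alone) and 98.3 (DKO CD8 and WT CD8). Of the 386 peaks in WT CD4-alone regions, 54.9% scored at or above the median of the list. The highest score in the whole list, 477.81, belonged to a WT CD4-alone region, chr5:29531201-29533000, with 31 H3K27ac reads and no island of the other marks in any group. Of the next, chr4:154423201-154425000 (score 476.78, 54 H3K27ac reads) had 23 WT CD4 H3K9ac reads, and chr6:73229201-73231000 (466.48, 31 reads) had 22 WT CD4 H3K4me3 reads. The fourth, chr9:119846001-119848200 (457.29, 68 reads), had WT CD4 islands of all other marks, with 25 H3K9ac, 23 H3K4me3 and 55 H3K27me3 reads, and a WT CD8 H3K27me3 island of 96 reads. Next came chr18:32702001-32703800 (448.03) and chr9:62933601-62938000 (441.48), with 39 and 82 H3K27ac reads. The middle 80% of all regions here had 23 to 57 reads, and a relation of score to H3K27ac reads was not tested. Of the 379, 240 had no island of the other 9 libraries, where 3829 of all 6510 regions had none. A peak was less frequent in regions with WT CD4 H3K27me3 (45 of 1391, 3.24%, 2.37 to 4.31) than in those without (334 of 5119, 6.52%, 5.86 to 7.24).

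The regions with the most reads differed from the bulk. All reads quoted are those of whole islands that overlap the region, and an island may reach beyond it. The first, chr5:33066401-33085000, was also the widest at 18.6 kb. It had 779 WT CD4 H3K27ac reads, 266 WT CD4 and 365 WT CD8 H3K9ac reads, and 396 WT CD4 and 195 WT CD8 H3K4me3 reads, with no island in DKO CD8. Both other activity marks were therefore called in WT CD8 too, where H3K27ac was not. The second, chr8:19890401-19902400, had 660 H3K27ac reads and islands in 7 of the 12 histone libraries, among them 591 WT CD4 and 442 WT CD8 H3K9ac reads, H3K4me3 in all 3 groups (576 in WT CD4, 498 in DKO CD8 and 531 in WT CD8) and 612 WT CD8 H3K27me3 reads. A WT CD8 H3K27ac island lay 800 bp from it. The third, chr11:3003801-3007200, had 435 reads at 128 per kb, the highest density among regions of 2 kb or more, with no other mark in WT CD4 and 12 H3K4me3 reads in WT CD8. Its nearest WT CD8 H3K27ac island lay 94600 bp away. Sites of artificially high signal were not filtered out, and no difference between the groups is drawn from these 3 regions.

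Below them, the regions differed in which other marks they carried. On chr9:119999401-120008600 (9.2 kb), 320 H3K27ac reads came with 27 H3K9ac and 16 H3K4me3 reads, all in WT CD4, and the nearest DKO CD8 and WT CD8 H3K27ac islands were 4600 and 6000 bp away. On chr7:89918001-89923800, 296 H3K27ac reads came with 117 WT CD4 and 82 WT CD8 H3K9ac reads and a Tcf1 peak scored 136.69. On chr1:87417801-87429000, 287 H3K27ac reads came with H3K4me3 in DKO CD8 (112 reads) and WT CD8 (143 reads) but not in WT CD4. Among the densest, chr19:55989001-55991000 had 162 reads at 81.0 per kb with a Tcf1 peak scored 283.9 and 18 WT CD8 H3K9ac reads. chr1:138502401-138506000 had 220 H3K27ac reads with 17 H3K9ac reads in WT CD4. chr16:52147001-52149200 (128 reads) and chr13:44601401-44604000 (147 reads) had no island of another mark in any group. The nearest DKO CD8 islands lay 50600 and 72600 bp away, and the nearest WT CD8 islands 18600 and 16000 bp away.

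In some regions a second mark was also limited to WT CD4. The largest H3K9ac signals of this kind were at chr8:72073001-72079400, with 154 H3K27ac, 246 H3K9ac and 19 H3K4me3 reads, and chr13:6605001-6612200, with 175, 221 and 27 reads, all in WT CD4 and none in a CD8 group. At chr6:73236001-73238000, 43 H3K27ac and 139 H3K9ac reads in WT CD4 faced 207 H3K27me3 and 32 H3K4me3 reads in WT CD8. This region lies close to the Tcf1-bound chr6 region above. At chr17:84858401-84864000, 172 H3K27ac, 133 H3K9ac and 145 H3K4me3 reads in WT CD4 faced 178 H3K4me3 and 280 H3K27me3 reads in DKO CD8. For H3K4me3 the largest was chr11:70462801-70464800 with 261 reads beside only 31 H3K27ac reads and no H3K9ac island. It was followed by chr7:148823601-148826400 (92 H3K27ac, 106 H3K9ac and 90 H3K4me3 reads) and chr11:18231601-18232400 (73, 66 and 83 reads), where all 3 marks were called in WT CD4 alone.

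**Figure D4:**
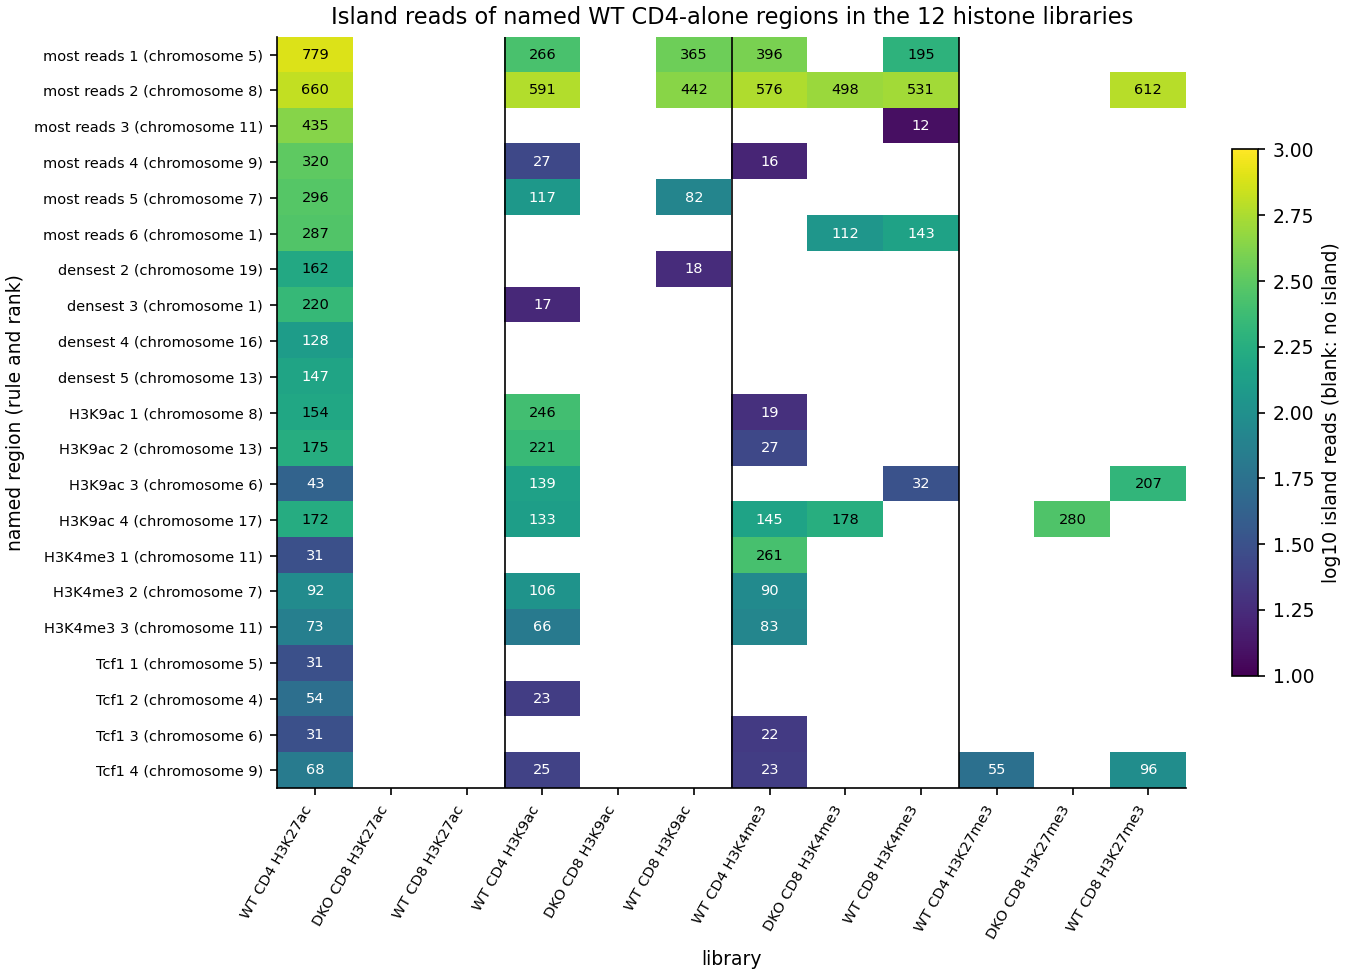
Island reads (number and colour, log10 scale; blank where no island was called) of named regions of WT CD4 alone in the 12 histone libraries; rows give the rule and rank under which each was chosen. H3K27ac is filled only in WT CD4, which the rule fixes, and 0 to 6 of the other 9 libraries have an island.

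Regions with H3K27me3 in a CD8 group and none in WT CD4 were led by chr4:149243801-149248600, with 135 H3K27ac reads in WT CD4 and 655 H3K27me3 reads in DKO CD8. The small region chr7:51629401-51630000 had 29 H3K27ac and 15 H3K4me3 reads in WT CD4 and 579 H3K27me3 reads in DKO CD8. A second one on chromosome 4, chr4:149292201-149293600, had 26 H3K27ac and 28 H3K9ac reads in WT CD4 and 445 H3K27me3 reads in DKO CD8. At chr8:97872201-97873400, 30 H3K27ac and 26 H3K9ac reads in WT CD4 faced H3K27me3 of 448 reads in DKO CD8 and 157 reads in WT CD8. It was among the 12 regions with H3K27me3 in both CD8 groups only.

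The regions lay on all chromosomes, at 1.83 (chromosome 3) to 3.89 (chromosome 11) per Mb of autosome, measured between the outermost islands. Their coefficient of variation over the 19 autosomes was 20.5%, against 25.5% for regions shared with DKO CD8, 25.7% for those of all 3 groups, 17.7% for DKO CD8 alone and 6.13% for WT CD8 alone. Chromosome X held 84 (1.29%), or 0.513 per Mb, and made up 6.34% of the sequence. It held 1.92% of the regions of all 3 groups, 1.82% of those of DKO CD8 alone and 7.70% of those of WT CD8 alone. The spread of WT CD4 alone thus lay between those of DKO CD8 alone and of all 3 groups. Regions shared with WT CD8 had nearly the same coefficient of variation as WT CD4 alone, 20.5%.

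**Figure D5:**
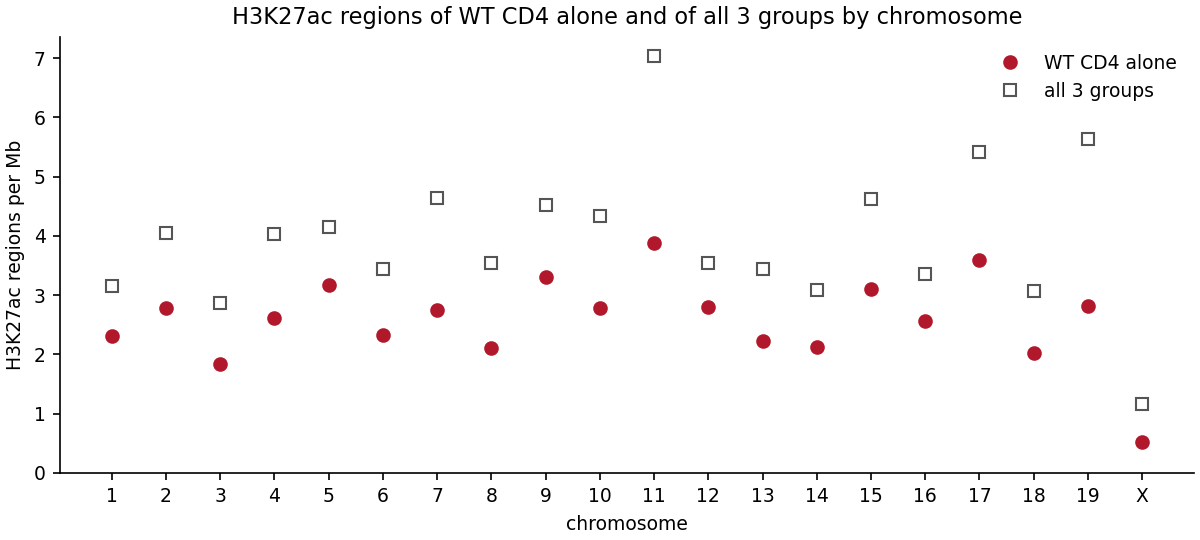
H3K27ac regions per Mb of each chromosome for WT CD4 alone (filled circles) and all 3 groups (open squares). Both were highest on chromosome 11 (3.89 and 7.03 per Mb), and chromosome X had 0.513 and 1.16 per Mb.

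The regions were also placed by their distance to H3K27ac islands of the other groups. An H3K27ac island of DKO CD8 or WT CD8 lay within 1 kb of 779 regions (12%, 11.2 to 12.8), within 5 kb of 2906 (44.6%, 43.4 to 45.9) and within 20 kb of 5469 (84.0%, 83.1 to 84.9). A WT CD8 island lay within 5 kb of 27.4% of these regions and of 24.6% of those of DKO CD8 alone. A DKO CD8 island lay within 5 kb of 31.8% of these regions and of 7.89% of those of WT CD8 alone. The share for places taken at random in the genome was not computed, so these shares are not read as closeness. The median distance was 11000 bp to a DKO CD8 island, 11400 bp to a WT CD8 island and 36400 bp to a region of all 3 groups. For DKO CD8 alone the median distance to a region of all 3 groups was 43000 bp and for WT CD8 alone 260800 bp. The 915 regions within 5 kb of a region of all 3 groups had less WT CD4 H3K27me3 than the 5595 farther away. The shares were 10.1% (8.18 to 12.2) and 23.2% (22.1 to 24.3), at nearly the same median of H3K27ac reads (33 and 32). Regions of all 3 groups themselves had WT CD4 H3K27me3 at 9.51%. This split was not made for other classes, so it is not read as a trait of the regions here.

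Some regions lay in runs, with gaps of at most 12.4 kb between neighbours of their own class. Of the 6510, 1501 (23.1%) had such a neighbour, against 28.3% of DKO CD8 alone and 24.7% of those shared with DKO CD8. There were 96 runs with 3 or more regions, and 3 of them had 6. On chr9:57961401-57996400, 6 regions of 25 to 66 reads lay within 35 kb, each with WT CD4 H3K27me3 and 2 with H3K9ac. On chr12:74291401-74316000, 6 regions lay within 24.6 kb, of which 1 had 109 reads and the others 22 to 38. On chr16:23229601-23267000, 6 regions with 24 to 92 reads lay within 37.4 kb and had no WT CD4 H3K9ac or H3K27me3. On chr5:113894801-113933200, 5 regions had 26 to 63 reads. None of these 4 runs held a Tcf1 peak.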

How the data were processed

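ChIP-seq libraries of 3 thymocyte groups (1 per mark) and 1 splenic Tcf1 library were used, as 13 files. The deposited island lists give whole-number read counts per island, not normalized. The authors' peak list gives a score per Tcf1 peak, of at least 50. Per the submitters' processing notes, the tools were Bowtie2 2.2.5, MACS 1.4.2, SICER 1.1 and FastQC and the build mm9; no role is stated for each. Per the labels' protocols, libraries were single-end and PCR-amplified, and several were sequenced again with longer reads, without saying which. Islands lie on a 200 bp grid, and settings differed between marks (smallest gap 600 bp for H3K27ac and H3K9ac, 400 bp for H3K4me3, 800 bp for H3K27me3). Island reads per library ranged from 248234 to 4025243, so one mark's islands were not weighed against another's. The 3 inputs and the Tcf1-deficient library were not analysed here.

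Islands sharing 1 bp or more were merged, and overlap, reads and distances computed with Python 3.11.15, numpy 2.4.6, pandas 2.3.3 and SciPy 1.17.1; figures used matplotlib 3.10.9. Interval steps were tested on simulated data against brute force and bedtools 2.31.1. Shares have exact Clopper-Pearson 95% intervals. Ratios of island reads were centred on their median over H3K27ac regions with both islands and called beyond 2-fold. The regions and rules were chosen with earlier results of these data known. Named regions were the 6 highest by H3K27ac reads, by reads per kb (2 kb or wider), by width, by H3K9ac or H3K4me3 reads where limited to WT CD4, by H3K27me3 reads of a CD8 group where absent from WT CD4, and by Tcf1 score, and the 4 largest runs; the text gives the leading ones. Planned counts of motifs and genes were not run, since the sequence and annotation at hand are of another build. Alternatives covered overlap, merging distance, equal covered length, read minimum, density, and peak score and distance; 2 on scaled reads were added after seeing the data.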

Additional observations from a re-analysis of the deposited data

How the results depend on the processing

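Of 93 alternative values over 32 results, 14 came from leaving out the top 1% of read density, which lay above every region here and so could change nothing. Of the others, 31 stayed within the counting interval (for counts, within 1.5 times; for medians, within the middle 50% of regions) and 48 moved. No paired analysis was possible because each group has 1 library per mark. The number of regions was 6904 with an overlap of 50% of the shorter island, 5403 with islands up to 1000 bp apart merged and 5678 at equal covered length. On scaled reads, an alternative chosen after seeing the data, it was 2000 at the smallest and 142 at the median island of both other lists.

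Among those 142 regions the shares were 22.5% (WT CD4), 0% (DKO CD8) and 4.93% (WT CD8) for H3K9ac, 13.4%, 5.63% and 9.15% for H3K4me3, 8.45%, 10.6% and 5.63% for H3K27me3, 15.5% for Tcf1 and 47.2% within 5 kb of another group's island. With at least the median reads, the shares that moved were 13.7% for WT CD4 H3K9ac, 8.41% for WT CD8 H3K4me3, 20.3% for WT CD4 H3K27me3 and 8.14% for Tcf1. Of marks in 1 group and not the other, they were 12.9% (H3K9ac, WT CD4 without WT CD8) and 13.5% (without DKO CD8), 5.43% (H3K4me3, WT CD8 without WT CD4) and 7.19% (without DKO CD8), and for H3K27me3 9.63% (WT CD4 without WT CD8), 6.32% (WT CD4 without DKO CD8), 3.13% (DKO CD8 without WT CD4) and 2.47% (WT CD8 without DKO CD8).

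At equal covered length, the moved shares were 2.47% for WT CD4 and 1.99% for WT CD8 H3K9ac, 9.40% for WT CD4 and 4.72% for WT CD8 H3K4me3, 15.1% for WT CD4 and 10.0035% for WT CD8 H3K27me3, and 40.6% within 5 kb. Of marks in 1 group only they were, for H3K9ac, 2.24% (WT CD4 without WT CD8), 2.38% (WT CD4 without DKO CD8) and 1.95% (WT CD8 without DKO CD8); for H3K4me3, 7.26%, 7.85% and 3.79% in the same order, and 2.57% (WT CD8 without WT CD4); for H3K27me3, 6.97%, 3.19% and 2.13%, with 3.89% (DKO CD8 without WT CD4) and 7.94% (DKO CD8 without WT CD8). Trimmed lists hold fewer islands, which lowers shares by construction. Tcf1 gave 3.24% with peaks of at least the median score and 6.73% with peaks within 1 kb. A distance of 1 kb gave 12% and one of 20 kb 84.0%. Without replicates, none of these values has an error between animals.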

Other observations

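The 2000 regions that reached the smallest island of both other H3K27ac lists on scaled reads, a set defined after the values had been seen, had WT CD4 H3K9ac at 15.3% (13.7 to 16.9), against 1.2% with DKO CD8 H3K9ac and 3.0% with WT CD8 H3K9ac. Over all WT CD4 H3K27ac islands the H3K9ac shares were 44.5%, 19.0% and 18.0% in the same order. The H3K9ac lists covered 45.6, 11.5 and 13.5 Mb, and the 2000 were not examined at equal covered length. Their H3K27me3 shares were 18.3% in WT CD4, 16.1% in DKO CD8 and 12.1% in WT CD8, against 14.8%, 14.2% and 9.89% of all WT CD4 islands. A Tcf1 peak was held by 10.1% (8.77 to 11.5), against 22.8%.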
